A study of Mus musculus with 7 samples.

Results

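The 42 genes described here belong to the integrated stress response and to amino acid supply. They comprise 9 stress factors and targets, 14 enzymes of amino acid and one-carbon metabolism, 8 amino acid transporters and 11 cytosolic aminoacyl-tRNA synthetases. They were listed by gene symbol and no value entered the rule, although earlier results of these data were known when the list was made. All 42 were found among the 23996 genes in the deposited expression tables. RNA-seq was done on mouse 3T3-L1 cells, a clonal line of embryonic fibroblasts that can be induced by hormones to become adipocytes, in a search for factors that matter for this differentiation.

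Each of 7 conditions had 1 library, and no condition was replicated. Confluent, uninduced cells gave the 0h control. MDI is the induction medium with IBMX (a phosphodiesterase inhibitor), dexamethasone (a glucocorticoid) and insulin; CM is MDI medium conditioned by other 3T3-L1 cells over 48 h of their differentiation. Confluent cells were sampled 4 h and 24 h after either medium was added (called 4h MDI and 4h CM, then 24h MDI and 24h CM). The Pro libraries (Pro MDI, Pro CM) came from preconfluent cells given either medium, with no time stated. No library without the inducers was analysed at 4 h or 24 h, so inducers, new medium and time cannot be told apart; in the Pro libraries cell density, and possibly time, differed too. The labels call the cells adipocytes, but the adipocyte hormone genes Lep (at 0 in every library) and Adipoq (at most 0.93 FPKM) were below 1 FPKM throughout. The other 6 of 8 adipocyte markers (Fabp4, Plin1, Cidec, Pparg, Cebpa and Lpl) reached 1 FPKM, and the summed level of the list ran from 72.9 to 554 FPKM, with Lpl at 339 and Fabp4 at 108 in 24h CM. All 6 preadipocyte and fibroblast markers reached at least 1 FPKM, with summed levels of 1960 to 6360 FPKM. Of markers of other cell types, Cd68 (leukocyte list, summed level 0.654 to 2.27 FPKM) and Des (muscle list, 0.142 to 1.1 FPKM, with Myod1 and Myog at 0) reached 1 FPKM, while endothelial markers (0.0438 to 0.306) and epithelial markers (at most 0.00611) did not. The part of other cells in the results was not tested. Depth is unknown because the tables hold FPKM (fragments counted on a transcript, divided by its length and by the library's mapped fragments) and no counts; 10530 to 11101 genes per library were at or above 1 FPKM.

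The integrated stress response begins when a kinase such as GCN2, which senses uncharged transfer RNA, or PERK, which senses unfolded protein, phosphorylates the translation initiation factor eIF2. Bulk protein synthesis then falls, while translation of the transcription factor ATF4 is favoured. ATF4 pairs with C/EBP-family partners on composite C/EBP-ATF elements and drives genes that make, import and charge amino acids onto transfer RNA. Growth signalling through mTORC1 also raises ATF4 protein, and because ATF4 is controlled largely in translation, its RNA level is not a measure of its activity.

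To show where such an element lies among these genes, the core TGATGNAA and its reverse complement TTNCATCA were searched on both strands of RefSeq promoter windows (300 bases, from 250 before to 50 after each gene's start, GRCm38.p6). A match is a description of the letters and not of binding. The core was found in 14 of the 35 genes that had a window (40%), against 4.51% of 27025 genes with a window and 2.45% of the 8976 such genes that were expressed enough to be tested below. The genes were listed as part of this response, so their share is not independent of that choice. The 35 include Cbs and Slc7a11, which were not tested in the main fit below. The matches fell in 4 of 9 stress genes, 3 of 13 enzymes, 2 of 5 transporters and 5 of 8 synthetases. The following 40-base stretches, each 5′ to 3′ on the gene's own strand with the core in capitals, are a selection of matches that lie upstream of the start. Matches in Slc7a11, Slc1a4 and Tars also begin upstream of the start and are not shown.
Chac1, chr2:119351033-119351072 (+): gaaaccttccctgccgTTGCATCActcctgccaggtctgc
Nupr1, chr7:126625557-126625596 (-): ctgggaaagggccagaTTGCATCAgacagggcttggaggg
Vldlr, chr19:27216804-27216843 (+): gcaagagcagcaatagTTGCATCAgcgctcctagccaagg
Asns, chr6:7693209-7693248 (-): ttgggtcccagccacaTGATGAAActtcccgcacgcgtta
Pycr1, chr11:120643828-120643867 (-): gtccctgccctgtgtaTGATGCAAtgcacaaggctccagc
Got1, chr19:43524684-43524723 (-): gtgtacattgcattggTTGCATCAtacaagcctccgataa
Aars, chr8:111033714-111033753 (+): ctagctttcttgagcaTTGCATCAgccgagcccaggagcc
Gars, chr6:55037955-55037994 (+): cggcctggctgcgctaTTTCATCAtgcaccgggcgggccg
Trib3, Slc7a11, Slc1a4, Iars, Tars and Yars held the core as well, Slc7a11 and Aars at 2 places each. Counted from the start, the core begins at base -23 in Asns and -30 in Gars, and at -193 in Chac1. Cth, Slc7a5, Slc7a3, Slc1a5, Nars, Wars and Lars had no window in the table. Genes that hold the core differed in their course over the libraries, as the values of Chac1, Got1 and Vldlr below show.

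The 42 genes did not move as a block after induction. From 0h to 4 h, 7 of the 39 tested members rose (17.9%) and 1 fell (2.56%), where 9.05% of all 11263 genes tested rose and 7.61% fell. The risers were Ddit4, Mthfd2, Mthfd1l, Got1, Slc7a5, Slc7a1 and Iars, and Chac1 fell. From 4 h to 24 h, 13 members fell (33.3%, against 10.4% of all genes) and 1 rose (2.56%, against 10.9%). Between 0h and 24 h, 2 members rose (5.13%, against 5.42% of all genes) and 1 fell (2.56%, against 5.55%), shares at or below the background. The share that fell depended on scaling, and was above the background when libraries were rescaled to a common FPKM total, as described below. In the preconfluent libraries, 19 members were higher than at 24 h (48.7%, against 4.44% of all genes) and 1 was lower (2.56%, against 5.66%). This contrast was added after the values had been seen, and a fit with no filter on low values called 0 genes in it. Pro was not the highest stage for every role, as the transporters had a median of -0.38 in Pro against 4 h (all genes -0.01).

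These calls came from limma on log2(FPKM + 1), with terms for stage and medium, and a call is an adjusted p under 0.05 with Benjamini-Hochberg adjustment over all genes tested. All differences below are on this log2 scale, with the standard error (SE) of the fit. A stage's MDI and CM libraries were its only samples, and the 2 residual degrees of freedom mix the interaction of stage and medium with library noise. A p-value here is therefore no measure of how cultures vary, and the fit gives the single 0h library the same variance as the rest. Cbs, Slc7a11 and Slc7a3 did not pass the filter of 1 FPKM in at least 2 libraries. None of the 39 that passed did so through a high group alone, as each was at or above 1 FPKM in all 7 libraries (lowest value 1.13 FPKM, for Chac1 in 4h CM). The comparisons share libraries and are not independent. In bulk RNA, fewer expressing cells and less RNA per cell cannot be told apart.

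**Figure D1:**
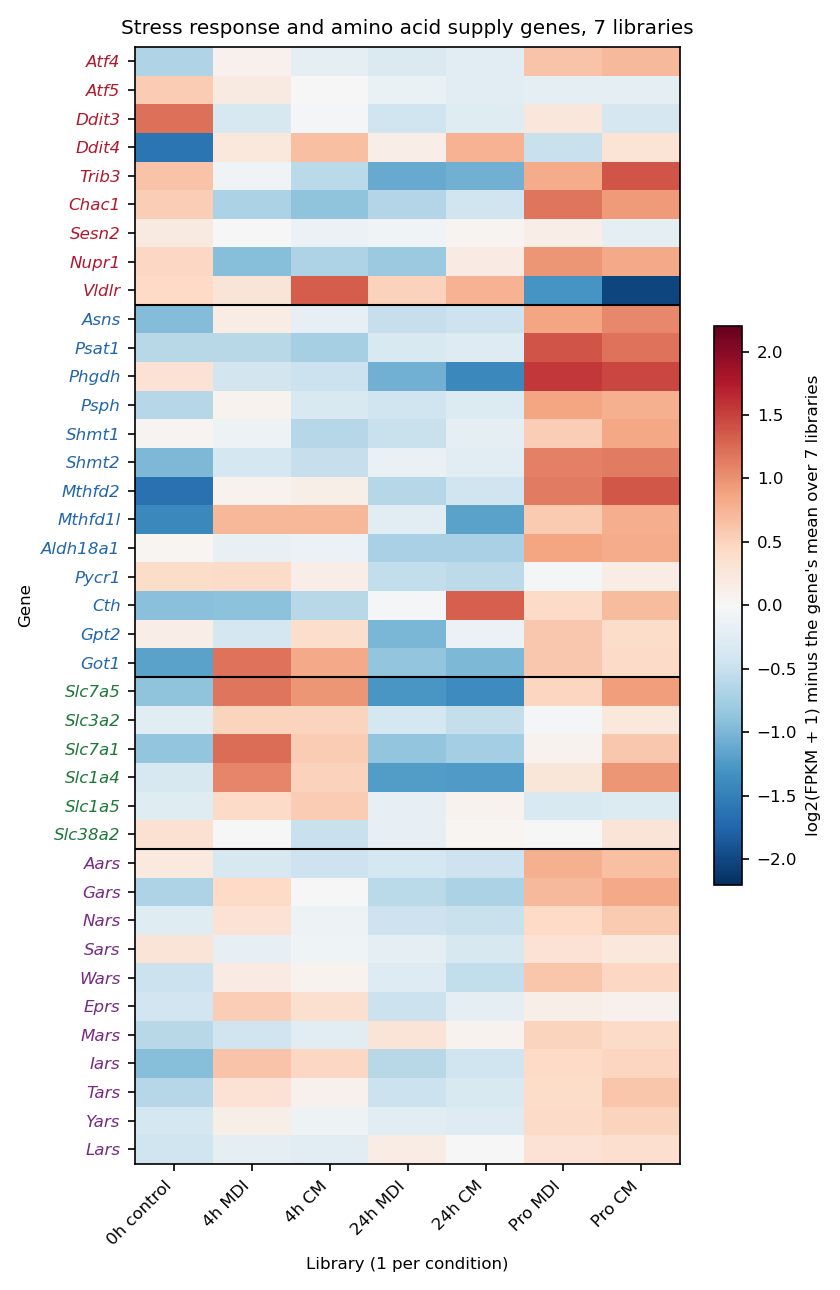
Level of the 39 tested genes in each library, as log2(FPKM + 1) minus the gene's own mean over the 7 libraries (colour scale, red above and blue below that mean). Rows are genes in the 4 roles, divided by black lines, and columns are libraries. The Pro columns are red for most enzymes and synthetases, while Slc7a5, Slc7a1 and Slc1a4 are reddest in 4h MDI.

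Single libraries set against 0h, with no test and a difference of at least 1 counted, share that library and are given side by side. In 4h MDI, 10 members were higher and 3 lower (13.5% and 14.1% of all genes), and in 4h CM 7 were higher and 4 lower (9.53% and 9.35% of all genes). In 24h MDI, 3 were higher and 6 lower (8.92% and 11% of all genes), and in 24h CM 3 were higher and 3 lower (8.21% and 9.98% of all genes).

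Scaling bears on the comparisons with 0h. When each library was rescaled to a common FPKM total (TPM), the median difference of all genes tested moved from -0.02 to -0.32 at 4 h against 0h and from 0.01 to -0.22 at 24 h against 0h. Of the 40 members tested under TPM, 7 rose and 7 fell at 4 h, where 671 of all 11665 genes rose and 2037 fell. At 24 h, 2 members rose and 8 fell. More of all genes fell than rose there too, but the share of members that fell was well above that of all genes. The member median at 4 h against 0h was 0.37 as deposited and 0.06 under TPM, in both cases above that of all genes. Omitting the 24h pair from the fit left 0 members called at 4 h against 0h, where 64 of all 11044 genes rose and 7 fell. The adjusted p of the 8 genes was then 0.055 to 0.0972, and 17 members and 3227 of all genes had an unadjusted p under 0.05. With no filter on low values, the fit over 17437 genes called 0 genes in Pro against 24 h, and so 0 members. There 32 members and 4688 of all genes had an unadjusted p under 0.05. The same setting called 2 members in place of 14 at 24 h against 4 h, where 159 of all genes rose and 184 fell. In Pro against 4 h it called 8 in place of 15, where 543 of all genes were higher and 549 lower.

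Among the stress factors, Atf4, the transcription factor at the centre of the response, was lowest at 0h with 117 FPKM. It was at 197 in 4h MDI, 160.3 in 4h CM, 149 in 24h MDI, 155 in 24h CM, 288 in Pro MDI and 305 in Pro CM. Both Pro libraries lay above the other 5, by 0.73 over 4 h (SE 0.16, adjusted p = 0.0417) and by 0.96 over 24 h (SE 0.16, adjusted p = 0.0384). The increase from 0h to 4 h was 0.60 (SE 0.20) and did not pass (adjusted p = 0.0955). Atf5, a related factor of the same family, ran the other way: 152 FPKM at 0h, 118 and 103 in 4h MDI and 4h CM, 92.8 and 86.9 at 24 h, and 88.7 and 89.3 in Pro MDI and Pro CM. The 0h library was the highest for Atf5, and no difference passed.

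Ddit3 encodes CHOP, a C/EBP-family factor of prolonged stress, and was highest in uninduced cells at 62.5 FPKM. Its other values were 20.6 in 4h MDI, 25.7 in 4h CM, 19.3 in 24h MDI, 22.0 in 24h CM, 31.8 in Pro MDI and 20.4 in Pro CM. The 6 treated libraries overlapped among themselves and all lay below 0h, at -1.40 for 4 h (SE 0.33, adjusted p = 0.0514) and -1.55 for 24 h (SE 0.33, adjusted p = 0.0516), both just outside the threshold and both past it under TPM, with a pseudocount of 5 and without the Pro pair. Ddit3 and Mars are listed at 1 locus, 7.64% of the exonic bases of Ddit3 overlap Mars on the opposite strand, and strandedness is not given in the sources used here, so some of their reads could be shared.

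Trib3, a pseudokinase that binds ATF4 and AKT, was lowest at 24 h and highest in the preconfluent cells. It was at 9.84 FPKM in 0h, 5.69 in 4h MDI, 3.69 in 4h CM, 2.26 in 24h MDI, 2.37 in 24h CM, 11.4 in Pro MDI and 17.5 in Pro CM. The Pro libraries exceeded the 24h libraries by 2.19 (SE 0.29, adjusted p = 0.0274) and the 4h libraries by 1.44 (SE 0.29, adjusted p = 0.0351). The difference from 0h was -0.95 at 4 h (SE 0.36) and -1.71 at 24 h (SE 0.36); neither passed, but that at 24 h lay at the threshold (adjusted p = 0.0502). It passed with a pseudocount of 0.1, under both rescalings, without the trend, and without the Pro or the 4h pair.

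Chac1 encodes an enzyme that degrades glutathione and, like Trib3, was lower in the confluent induced cells than in 0h or Pro. Its level was 4.70 FPKM at 0h, 1.43 and 1.13 in 4h MDI and 4h CM, 1.51 and 1.88 in 24h MDI and 24h CM, and 7.89 and 6.50 in Pro MDI and Pro CM. All 4 libraries of confluent induced cells lay below 0h, and both Pro libraries lay above it. Chac1 fell by 1.33 from 0h to 4 h (SE 0.23, adjusted p = 0.0345) and was higher in Pro than at 4 h by 1.85 (SE 0.19, adjusted p = 0.00691) and than at 24 h by 1.60 (SE 0.19, adjusted p = 0.0223).

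Nupr1, a small chromatin-associated stress regulator, stood at 26.7 FPKM in 0h, 9.49 in 4h MDI, 11.6 in 4h CM, 10.5 in 24h MDI, 21.8 in 24h CM, 38.4 in Pro MDI and 35.2 in Pro CM. Pro was above 4 h by 1.72 (SE 0.30, adjusted p = 0.0245), and the 24h libraries were far apart from each other, with only 24h CM near the 0h level. Sesn2, which encodes a leucine-binding inhibitor of mTORC1 signalling, varied little, with 24.9 FPKM at 0h, 21.4 and 19.8 at 4 h, 20.5 and 22.7 at 24 h, and 23.9 and 18.8 in Pro (MDI before CM in each pair). The 0h library was slightly above the rest, the treated stages overlapped, and no difference passed.

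Ddit4 and Vldlr moved in ways of their own. Ddit4 encodes REDD1, an inhibitor of mTORC1, and rose from 25.1 FPKM at 0h to 93.1 (4h MDI) and 126 (4h CM). It was at 87.0 in 24h MDI, 134 in 24h CM, 55.6 in Pro MDI and 97.2 in Pro CM. Every treated library exceeded 0h, and Ddit4 was 2.06 higher both at 4 h (SE 0.19, adjusted p = 0.0242) and at 24 h (SE 0.19, adjusted p = 0.0168).

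Vldlr, the very low density lipoprotein receptor, was at 11.8 FPKM in 0h, 10.4 in 4h MDI, 22.6 in 4h CM, 12.5 in 24h MDI, 15.1 in 24h CM, 2.83 in Pro MDI and 1.32 in Pro CM. Both Pro libraries were below the other 5, with a log2 difference of -2.46 against 4 h (SE 0.43, adjusted p = 0.0259) and of -2.30 against 24 h (SE 0.43, adjusted p = 0.0444, lost with a pseudocount of 5). Over the 9 stress genes the median difference at 4 h against 0h was -0.46 (all genes -0.02), with Ddit4 up and Chac1 down. Each is 11.1% of the 9, against 9.05% of all genes up and 7.61% down. Under TPM the median was -0.78 (all genes -0.32), and Atf5, Ddit3 and Nupr1 fell as well as Chac1, where 2037 of all 11665 genes fell.

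**Figure D2:**
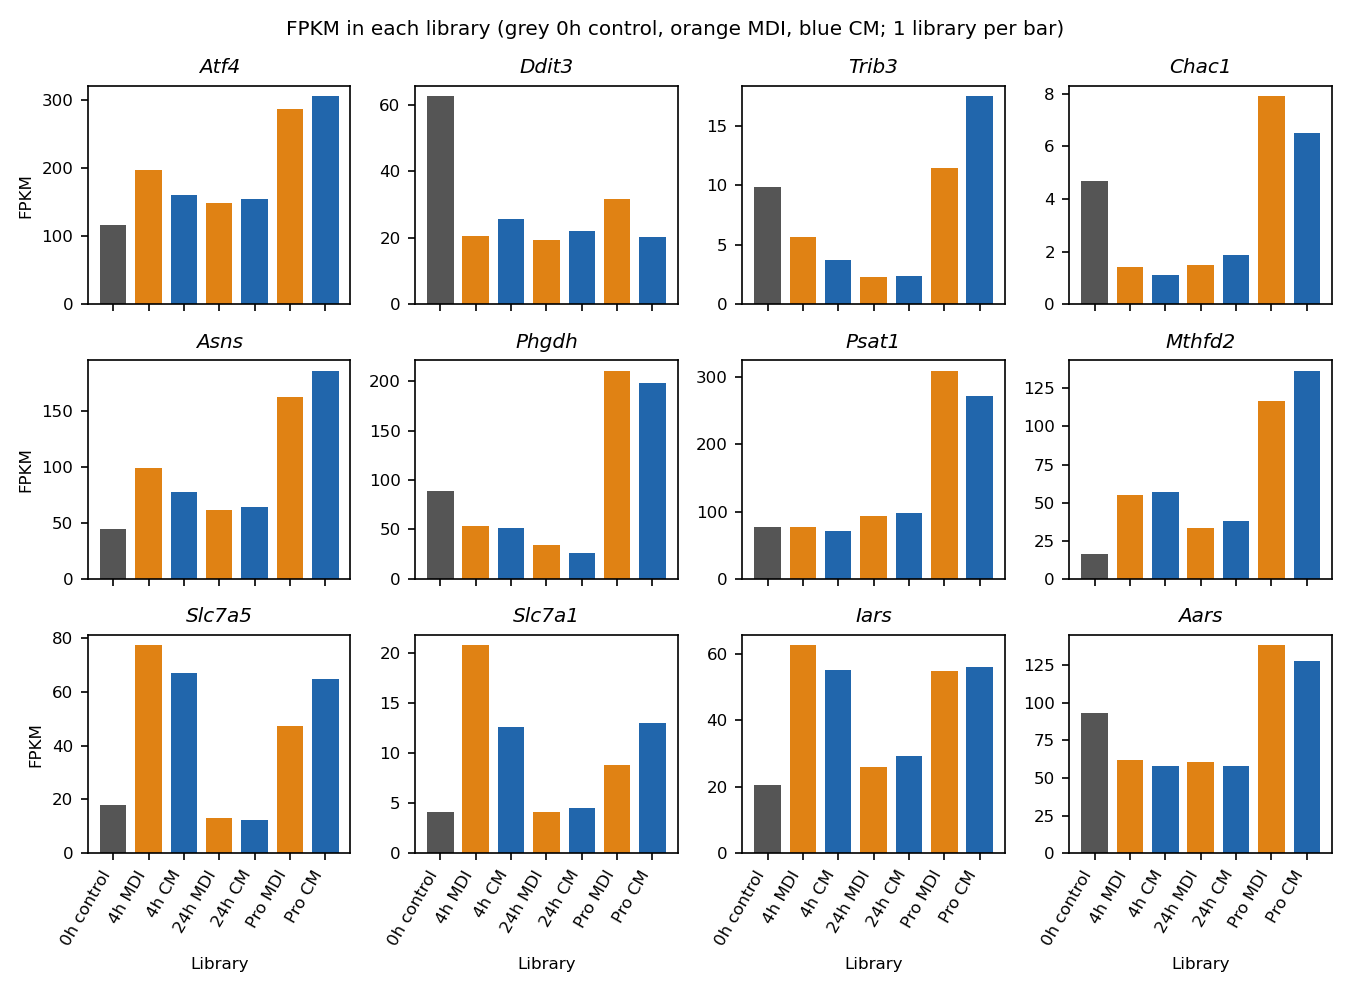
FPKM of 12 genes in each of the 7 libraries (vertical axes start at 0 and differ between panels; 1 bar per library, so there are no error bars). Ddit3 has its tallest bar at 0h (62.5 FPKM), Slc7a5, Slc7a1 and Iars are tallest in 4h MDI, and Atf4, Trib3, Asns, Mthfd2, Phgdh, Psat1, Chac1 and Aars are tallest in a Pro library.

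The enzymes fell into groups with different courses. The serine pathway, made up of Phgdh, Psat1 and Psph, was highest in preconfluent cells. Phgdh, which encodes the entry enzyme from glycolysis into serine, was at 88.9 FPKM in 0h, 53.8 and 51.3 in 4h MDI and 4h CM, 33.9 and 26.1 in 24h MDI and 24h CM, and 210.5 and 198.5 in Pro MDI and Pro CM. The levels at 0h, 4 h, 24 h and Pro did not overlap. Phgdh fell by 0.80 from 4 h to 24 h (SE 0.15, adjusted p = 0.0319) and by 1.55 between 0h and 24 h (SE 0.19, adjusted p = 0.0207), and Pro exceeded 24 h by 2.74 (SE 0.15, adjusted p = 0.0102), a difference not exceeded by any other member in that contrast.

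Psat1, the aminotransferase of the next step, was at 77.7 FPKM in 0h, 77.3 in 4h MDI, 70.7 in 4h CM, 93.9 in 24h MDI, 97.7 in 24h CM, 309 in Pro MDI and 272 in Pro CM. Induction of confluent cells gave no called difference for Psat1, and Pro lay above 4 h by 1.96 (SE 0.14, adjusted p = 0.00421) and above 24 h by 1.59 (SE 0.14, adjusted p = 0.0194). Psph, the phosphatase that completes serine, was at 10.6 FPKM in 0h, 17.9 and 13.1 at 4 h, 12.2 and 13.5 at 24 h, and 31.9 and 29.6 in Pro. Psph in Pro was higher by 0.96 than at 4 h (adjusted p = 0.0345) and by 1.20 than at 24 h (adjusted p = 0.0351), but 26.1% of its exonic bases overlap Cct6a on the other strand.

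The mitochondrial one-carbon enzymes Shmt2, Mthfd2 and Mthfd1l were lowest at 0h. Shmt2, which splits serine into glycine and a folate-bound carbon unit, was at 28.7 FPKM in 0h, 44.1 and 40.6 at 4 h, 52.6 and 49.6 at 24 h, and 126 and 129 in Pro. The Pro libraries were above those of 4 h and 24 h, by 1.57 over 4 h (SE 0.14, adjusted p = 0.00518) and by 1.30 over 24 h (SE 0.14, adjusted p = 0.0206). Mthfd2, the next folate enzyme in the mitochondrion, rose from 16.01 FPKM at 0h to 54.8 (4h MDI) and 57.0 (4h CM), and was at 33.2 and 38.0 at 24 h and 117 and 136 in Pro. Its 4 stages did not overlap. Mthfd2 rose by 1.74 at 4 h (SE 0.17, adjusted p = 0.0255), was 1.10 above 0h at 24 h (SE 0.17, adjusted p = 0.0297), and was 1.80 higher in Pro than at 24 h (SE 0.14, adjusted p = 0.0169).

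Mthfd1l, which releases formate from the mitochondrial pathway, was highest at 4 h among the confluent libraries and about as high in Pro. It was at 5.73 FPKM in 0h, 29.0 in 4h MDI, 28.9 in 4h CM, 14.3 in 24h MDI, 6.95 in 24h CM, 25.7 in Pro MDI and 30.2 in Pro CM. The increase at 4 h was 2.15 (SE 0.39, adjusted p = 0.0365), and the gene fell by 1.44 from 4 h to 24 h (SE 0.32, adjusted p = 0.0420), when the 24h CM library was close to 0h and 24h MDI was not.

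Got1, the cytosolic aspartate aminotransferase, had the largest estimate of any member at 4 h against 0h, within its SE of that of Mthfd1l. Its level was 21.1 FPKM in 0h, 115 in 4h MDI, 88.3 in 4h CM, 26.5 in 24h MDI, 24.5 in 24h CM, 74.6 in Pro MDI and 66.7 in Pro CM. The 4h libraries lay above all others and the 24h libraries lay near 0h: Got1 rose by 2.2 at 4 h (SE 0.18, adjusted p = 0.0242) and fell by 1.94 from 4 h to 24 h (SE 0.15, adjusted p = 0.0087). Asns, which makes asparagine and holds the best-studied promoter element of the response, was at 44.97 FPKM in 0h, 99.5 in 4h MDI, 77.9 in 4h CM, 61.9 in 24h MDI, 63.8 in 24h CM, 163 in Pro MDI and 186 in Pro CM. The 0h library was the lowest and both Pro libraries the highest, by 0.97 over 4 h (SE 0.18, adjusted p = 0.0295) and 1.45 over 24 h (SE 0.18, adjusted p = 0.0259). The difference of 0.95 at 4 h against 0h (SE 0.22) missed the threshold (adjusted p = 0.0513).

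Aldh18a1 and Pycr1 act in proline synthesis, at its first and last steps. Aldh18a1 was at 47.9 FPKM in 0h, 41.3 and 41.98 at 4 h, 27.8 and 27.9 at 24 h, and 84.8 and 82.0 in Pro, with each pair of libraries close together. It fell by 0.57 from 4 h to 24 h (SE 0.14, adjusted p = 0.0479), a call that held with a pseudocount of 0.1 and was lost under both rescalings, with a pseudocount of 5, with no filter, without the trend and without the Pro pair. Pro exceeded 24 h by 1.55 (SE 0.14, adjusted p = 0.0185). Pycr1, at 4.74 FPKM in 0h, 4.79 and 3.81 at 4 h, 1.97 and 1.92 at 24 h, and 3.28 and 3.87 in Pro, was lowest at 24 h and fell by 0.84 from 4 h (SE 0.19, adjusted p = 0.0414). The Pro libraries of Pycr1 did not lie above the rest.

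Cth, the cysteine-forming cystathionine gamma-lyase, was the one member that rose from 4 h to 24 h. Its values were 5.20 FPKM in 0h, 5.28 in 4h MDI, 6.68 in 4h CM, 10.5 in 24h MDI, 28.2 in 24h CM, 14.8 in Pro MDI and 18.0 in Pro CM. The increase from 4 h to 24 h was 1.40 (SE 0.32, adjusted p = 0.0442), a call lost with a pseudocount of 5 (adjusted p = 0.0528) and with no filter, and within the 24h pair the CM library was far above the MDI library. Cbs, which makes the substrate of Cth, was at or near 0 in all libraries (at most 0.0269 FPKM). Shmt1, the cytosolic partner of Shmt2, ranged from 4.02 FPKM in 4h CM to 12.9 in Pro CM, and Gpt2, a mitochondrial alanine aminotransferase, from 6.67 in 24h MDI to 22.2 in Pro MDI, with no called difference for either. Shmt1 in Pro was 1.06 above 4 h (SE 0.26, limma adjusted p = 0.0534), which passed with a pseudocount of 5 and under TPM. On the opposite strand, 6.44% of its exonic bases overlap Smcr8. Of 13 enzymes tested, 3 rose at 4 h against 0h (23.1%, against 9.05% of all genes). From 4 h to 24 h, 6 fell (46.2%, against 10.4%) and 1 rose (7.69%, against 10.9%). In Pro 8 were higher than at 24 h (61.5%, against 4.44%).

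Transporters had the highest median of the 4 roles at 4 h against 0h and the lowest at 24 h against 4 h. Slc7a5 encodes LAT1, which imports leucine and other large neutral amino acids, and was at 17.8 FPKM in 0h, 77.3 in 4h MDI, 67.1 in 4h CM, 13.2 in 24h MDI, 12.4 in 24h CM, 47.2 in Pro MDI and 64.7 in Pro CM. The 4h libraries were the highest and the 24h libraries lay below 0h. Slc7a5 rose by 1.96 at 4 h (SE 0.26, adjusted p = 0.0287), fell by 2.4 from 4 h to 24 h (SE 0.21, adjusted p = 0.0100) and was 2.03 higher in Pro than at 24 h (SE 0.21, adjusted p = 0.0206).

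Slc3a2, the heavy chain that carries LAT1 to the membrane, was at 79.8 FPKM in 0h, 133 in 4h MDI, 134 in 4h CM, 72.6 in 24h MDI, 66.0 in 24h CM, 92.0 in Pro MDI and 112 in Pro CM. It had the same order of stages as Slc7a5 over a narrower range, and fell by 0.94 from 4 h to 24 h (SE 0.16, adjusted p = 0.0280). The gain at 4 h, 0.74 (SE 0.20), did not pass (adjusted p = 0.0654).

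Slc7a1, a carrier of arginine and lysine, rose from 4.09 FPKM at 0h to 20.8 (4h MDI) and 12.6 (4h CM), and was at 4.10 and 4.53 at 24 h and 8.82 and 13.02 in Pro. At 24 h its level was close to that of 0h. Slc7a1 rose by 1.76 at 4 h (SE 0.39, adjusted p = 0.0467, lost with a pseudocount of 5) and fell by 1.70 from 4 h to 24 h (SE 0.32, adjusted p = 0.0313). Slc1a4, a carrier of serine, alanine and other small neutral amino acids, was at 8.39 FPKM in 0h, 24.2 in 4h MDI, 16.1 in 4h CM, 4.11 and 4.08 at 24 h, and 13.4 and 22.4 in Pro. The 24h libraries were the lowest, having fallen from 4 h by a log2 difference of -2.03 (SE 0.33, adjusted p = 0.0257), and Pro exceeded them by 1.85 (SE 0.33, adjusted p = 0.0405, lost with a pseudocount of 5).

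Slc1a5, the glutamine carrier ASCT2, departed from this order in the preconfluent cells. It was at 33.3 FPKM in 0h, 54.3 and 59.3 at 4 h, 35.4 and 42.6 at 24 h, and 31.8 and 32.6 in Pro, so that both Pro libraries lay below the other 5. Against 4 h, Pro was lower (log2 difference -0.80, SE 0.15, adjusted p = 0.0278), a call lost under TPM. Slc38a2, a sodium-coupled carrier of neutral amino acids, was highest at 0h (102 FPKM) and ranged down to 56.8 in 4h CM with no called difference.

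Slc7a11, the cystine importer that also pairs with Slc3a2, was barely detected: 0.252 FPKM in 0h, 0.385 and 0.320 at 4 h, 0.345 and 0.196 at 24 h, and 0.948 and 1.20 in Pro. Its Pro libraries were the highest, but only Pro CM reached 1 FPKM and the gene was not tested in the main limma fit. Under TPM it passed the filter and was called higher in Pro than at 4 h and at 24 h. It passed through its high Pro libraries, so those calls are no support. Slc7a3, another cationic amino acid carrier, was between 0.0509 and 0.487 FPKM. Of the 6 transporters tested, 2 rose at 4 h against 0h (33.3%, against 9.05% of all genes). From 4 h to 24 h, 4 of them fell (66.7%, against 10.4%). The median differences were 0.95 and -1.32 (all genes: -0.02 and -0.01). Under TPM 7 transporters were tested, as Slc7a11 then passed the filter, and the medians were 0.44 and -0.87 (all genes: -0.32 and 0.06). These medians are therefore not of the same genes.

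**Figure D3:**
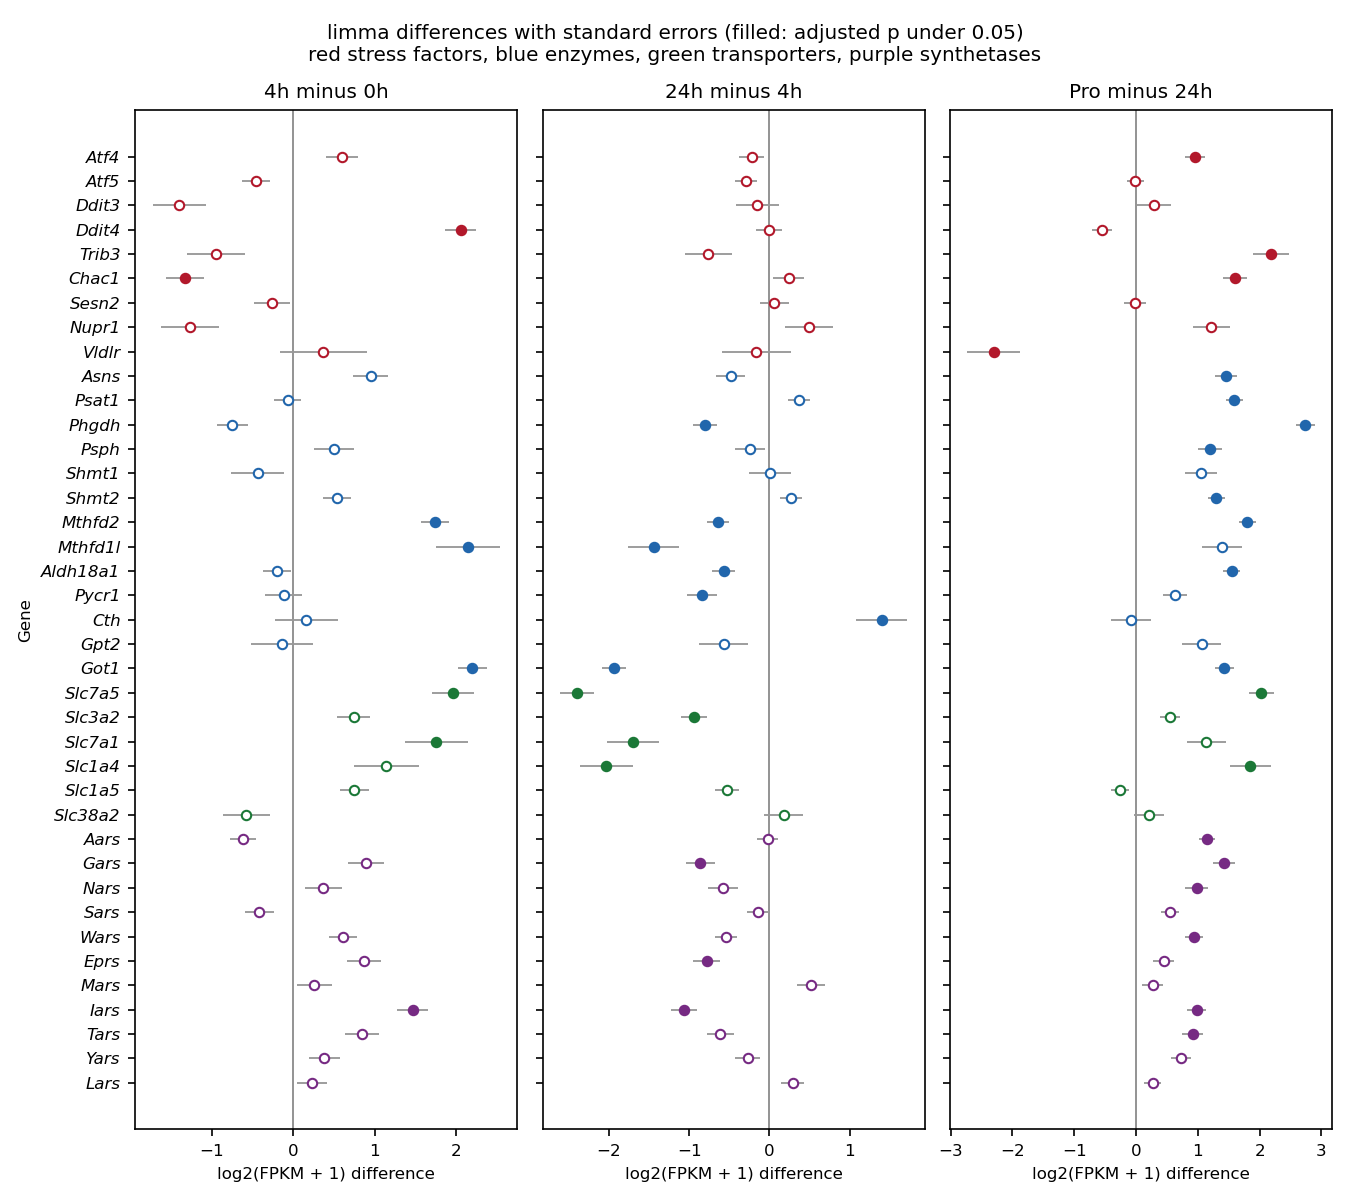
Differences of the 39 tested genes in 3 contrasts (horizontal axes, log2(FPKM + 1) difference; points are limma estimates, bars their standard errors, filled points have an adjusted p under 0.05). The transporters in green lie right of 0 at 4 h against 0h except Slc38a2, left of 0 at 24 h against 4 h except Slc38a2, and enzymes and synthetases lie right of 0 in Pro against 24 h except Cth.

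The synthetases charge each amino acid onto its transfer RNA. Iars (isoleucine) was called at 4 h, rising from 20.5 FPKM at 0h to 62.6 (4h MDI) and 55.3 (4h CM); it was at 26.0 and 29.4 at 24 h and 55.0 and 56.2 in Pro. The 4h and Pro libraries overlapped and lay above those of 0h and 24 h. Iars rose by 1.47 at 4 h (SE 0.19, adjusted p = 0.0286), fell by 1.06 from 4 h to 24 h (SE 0.16, adjusted p = 0.0221) and was 0.98 higher in Pro than at 24 h (SE 0.16, adjusted p = 0.0351).

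Gars (glycine) was at 90.7 FPKM in 0h, 197 in 4h MDI, 145 in 4h CM, 95.9 in 24h MDI, 89.8 in 24h CM, 239 in Pro MDI and 261 in Pro CM. It returned at 24 h to its 0h level and was highest in Pro. Gars fell by 0.86 from 4 h to 24 h (SE 0.18, adjusted p = 0.0387) and Pro was 1.42 above 24 h (SE 0.18, adjusted p = 0.0267). Eprs, which charges both glutamate and proline, was at 58.4 FPKM in 0h, 115 and 100.3 at 4 h, 56.2 and 68.5 at 24 h, and 86.1 and 84.4 in Pro. Its 4h libraries were the highest, and Eprs fell by 0.78 from 4 h to 24 h (SE 0.17, adjusted p = 0.0411), a call lost under TPM.

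Aars (alanine) was not higher at 4 h than at 0h. It was at 92.9 FPKM in 0h, 62.3 and 58.2 at 4 h, 60.9 and 58.1 at 24 h, and 138 and 128 in Pro. The confluent induced libraries lay below 0h, without a called difference, and the Pro libraries above it, 1.13 over 4 h (SE 0.13, adjusted p = 0.00963) and 1.15 over 24 h (SE 0.13, adjusted p = 0.0220). Exosc6 overlaps 23.1% of the exonic bases of Aars on the same strand, so reads there could belong to either gene.

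Tars (threonine), Nars (asparagine) and Wars (tryptophan) were called in Pro against 24 h. Tars was at 47.2 FPKM in 0h, 92.2 and 78.5 at 4 h, 52.6 and 57.9 at 24 h, and 97.5 and 113 in Pro; Pro was 0.92 above 24 h (adjusted p = 0.0433). Nars was at 53.4 FPKM in 0h, 80.5 and 59.9 at 4 h, 46.8 and 45.7 at 24 h, and 87.8 and 96.5 in Pro, which was 0.98 above 24 h (adjusted p = 0.0450). Wars was at 19.9 FPKM in 0h, 32.0 and 29.6 at 4 h, 22.8 and 19.1 at 24 h, and 43.3 and 38.9 in Pro, which was 0.94 above 24 h (adjusted p = 0.0337). In each of these 3 genes both Pro libraries lay above the other 5.

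Mars (methionine) was higher in both 24h libraries than in both 4h libraries, without a called difference, at 15.4 FPKM in 0h, 17.4 and 20.2 at 4 h, 29.5 and 25.3 at 24 h, and 34.1 and 32.5 in Pro. Pro exceeded 4 h by 0.80 (SE 0.17, adjusted p = 0.0394), and the overlap with Ddit3 given above covers 2.29% of its exonic bases. Sars (serine; 41.3 to 65.9 FPKM), Yars (tyrosine; 22.5 to 42.01) and Lars (leucine; 30.6 to 54.7) had no called difference. Of the 11 synthetases, 1 rose at 4 h against 0h (9.09%, near the 9.05% of all genes). From 4 h to 24 h, 3 fell (27.3%, against 10.4%), and 6 were higher in Pro than at 24 h (54.5%, against 4.44%).

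Preconfluent cells against cells 4 h after induction gave 13 higher members (33.3%, against 9.3% of all genes) and 2 lower ones (5.13%, against 9.74%). Of these 13, 4 were stress genes, 7 enzymes and 2 synthetases; none of the 6 transporters was higher. Both Pro libraries lay above the other 5 in 21 of 39 members (53.8%), against 14.9% of all genes tested, and below them in 2, Vldlr and Slc1a5 (5.13%, against 14.7%). Both 4h libraries lay above 0h and both 24h libraries in 17 members (43.6%, against 26.1%) and below them in 2, Chac1 and Psat1 (5.13%, against 26.2%). The 0h library was below all 6 treated libraries in 15 members (38.5%, against 24.3%) and above all in 4, namely Atf5, Ddit3, Sesn2 and Slc38a2 (10.3%, against 25.5%). The Pro contrasts and these orderings were added after the values had been seen. Without the 24h pair, the contrast of Pro with 4 h called 9 members in place of 15, and the calls of Atf4, Trib3, Asns, Psph, Aldh18a1, Mars and Slc1a5 were lost. Of all 11044 genes in that fit, 537 were higher and 637 lower.

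The rest of the pathway was read from lists of genes outside the 42. Of 15 tested genes of the response machinery, 5 rose at 4 h against 0h (33.3%, against 9.05% of all genes) and 0 fell (against 7.61%). The risers included Eif2ak1, which encodes the haem-regulated kinase HRI, and Eif2s1, the alpha subunit of eIF2 itself. The others were Eif2b1, Eif2b2 and Eif2b3, subunits of the exchange factor eIF2B that phosphorylated eIF2 blocks. Under TPM, 3 rose and 1 fell (median 0.23, from 0.54), where 671 of all 11665 genes rose and 2037 fell. Under the median of ratios 4 rose and 1 fell, where 926 of all 11264 genes rose and 997 fell. Eif2b3 went from 6.83 FPKM at 0h to 28.1 (4h MDI) and 22.1 (4h CM), an increase of 1.73 (SE 0.24, adjusted p = 0.0291). Atf3, another stress-induced factor, stayed under 1 FPKM in all libraries (0.0141 to 0.689).

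Other cytosolic synthetases with their partners, and the mitochondrial synthetases, are given side by side, and the difference between these lists was not tested. At 4 h against 0h, 6 of 12 cytosolic genes rose (Farsa, Hars, Kars, Rars, Aimp2 and Eef1e1), which is 50%, against 9.05% of all genes. Their list had a median of 0.89 (all genes -0.02). Under TPM 4 of the 12 rose, where 671 of all 11665 genes rose, and the median was 0.59 (all genes -0.32). Rars was at 42.1 FPKM in 0h, 122 (4h MDI) and 96.5 (4h CM). Of 17 mitochondrial synthetases, 1 rose (Mars2) and 1 fell (Fars2), with a median of -0.13. Each was 5.88% of the list, below the share of all genes in that direction. Under TPM 0 rose and 2 fell, with a median of -0.44 (all genes -0.32), where 2037 of all 11665 genes fell. In Pro against 24 h, 3 of the 12 cytosolic genes were higher (Cars, Rars and Eef1e1), which is 25%, against 4.44% of all genes. Of the 17 mitochondrial ones 0 were called, where 4.44% of all genes were higher and 5.66% lower.

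Further ATF4 target genes were mixed at 4 h against 0h: of 13, 1 rose (7.69%, against 9.05% of all genes) and 3 fell (23.1%, against 7.61%). Ero1l, an oxidase of the endoplasmic reticulum, rose by 1.49 (SE 0.18, adjusted p = 0.0277). Among the 3 that fell were Bbc3, the cell death gene PUMA (-2.52, SE 0.29, adjusted p = 0.0277), and Slc6a9, a glycine carrier (-1.47, SE 0.21, adjusted p = 0.0291). The third was Klhl24, an adaptor for protein turnover. Under TPM 14 of these targets were tested, and 1 rose and 5 fell, where 671 of all 11665 genes rose and 2037 fell. In Pro against 24 h, 4 of the 13 were higher (30.8%, against 4.44% of all genes) and 1 lower (7.69%, against 5.66%). Aldh1l2, a mitochondrial folate enzyme that stood at 15.1 FPKM in 0h, 3.46 and 3.40 at 24 h and 17.7 and 18.4 in Pro, was higher by 2.11 (SE 0.15, adjusted p = 0.0132). Eif4ebp1, a repressor of translation, was higher by 1.12 (SE 0.17, adjusted p = 0.0345).

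Other enzymes of amino acid metabolism also rose at 4 h against 0h. Glul, glutamine synthetase, went from 7.58 FPKM at 0h to 312 (4h MDI) and 265 (4h CM), a rise of 5.07 (SE 0.34, adjusted p = 0.0240). Bcat1, the cytosolic branched-chain aminotransferase, rose by 2.56 (SE 0.44, adjusted p = 0.0345). Of 13 other amino acid transporters, 2 rose at 4 h against 0h (15.4%, against 9.05% of all genes) and 1 fell (7.69%, against 7.61%). Slc6a6, the taurine carrier, rose by 2.55 (SE 0.26, adjusted p = 0.0255), and Slc7a6, which like Slc7a5 pairs with Slc3a2, by 1.54 (SE 0.19, adjusted p = 0.0280). Slc38a7 fell by 1.59 (SE 0.22, adjusted p = 0.0291). Under TPM 2 of the 13 rose and 2 fell, where 671 of all 11665 genes rose and 2037 fell. From 4 h to 24 h, 5 of these 13 transporters fell (38.5%, against 10.4% of all genes) and 0 rose (against 10.9%).

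Conditioned medium against fresh MDI was the comparison the study's title names. Over the 3 stages, limma called 0 of 39 members and 0 of 11158 genes (0% in either direction). At an unadjusted p under 0.05 there were 145 genes and 1 member, Ddit4, which was 0.61 higher in CM (SE 0.13, unadjusted p = 0.00536, adjusted p = 1). The Ddit4 values given above were higher in the CM library of all 3 pairs, by 0.43 at 4 h, 0.62 at 24 h and 0.79 in Pro. Cth was 0.64 higher on average (SE 0.26), with most of it in the 24h pair.

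Within single pairs, where no test is possible, a gene was counted when its CM and MDI libraries were at least 1 apart in log2(FPKM + 1). At 4 h this held for 1 member, Vldlr (1.05 higher in CM; 1.1% of 10800 genes were higher and 2.95% lower). At 24 h it held for Cth (1.35 higher in CM; 1.92% of 10972 genes were higher and 1.49% lower). In Pro it held for 0 of 40 members (2.23% of 10770 genes were higher and 1.23% lower). In the same 24h pair, 5 of 6 measured adipocyte markers were at least 1 higher in CM (Fabp4, Plin1, Cidec, Cebpa and Lpl; median 1.84), as was Pdgfra, and their part in the Cth and Nupr1 differences was not tested. Close to the threshold at 24 h were Nupr1 at 0.99 and Mthfd1l at -0.95. Vldlr no longer counted with a pseudocount of 5 (0.84), and at 24 h TPM or a pseudocount of 0.1 gave 3 members in place of 1.

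The media differed by under 0.5 for most members, in shares near those of all genes: 33 of 39 in the 4h pair (84.6%, against 83.6%), 34 in the 24h pair (87.2%, against 86.8%) and 33 in the Pro pair (84.6%, against 88%). At 4 h, 27 members were lower in CM (69.2%, against 45.5% of all genes) and 12 higher, with a median of -0.13 (all genes 0.03). The member medians at 24 h and in Pro were 0.05 and 0.04 (all genes 0.01 and -0.02). Members with the same sign in all 3 pairs were Ddit4, Mthfd2, Cth and Slc1a5 (CM higher; 10.3%, against 7.51% of all genes) and Phgdh, Got1, Aars and Wars (CM lower; 10.3%, against 6.76%).

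**Figure D4:**
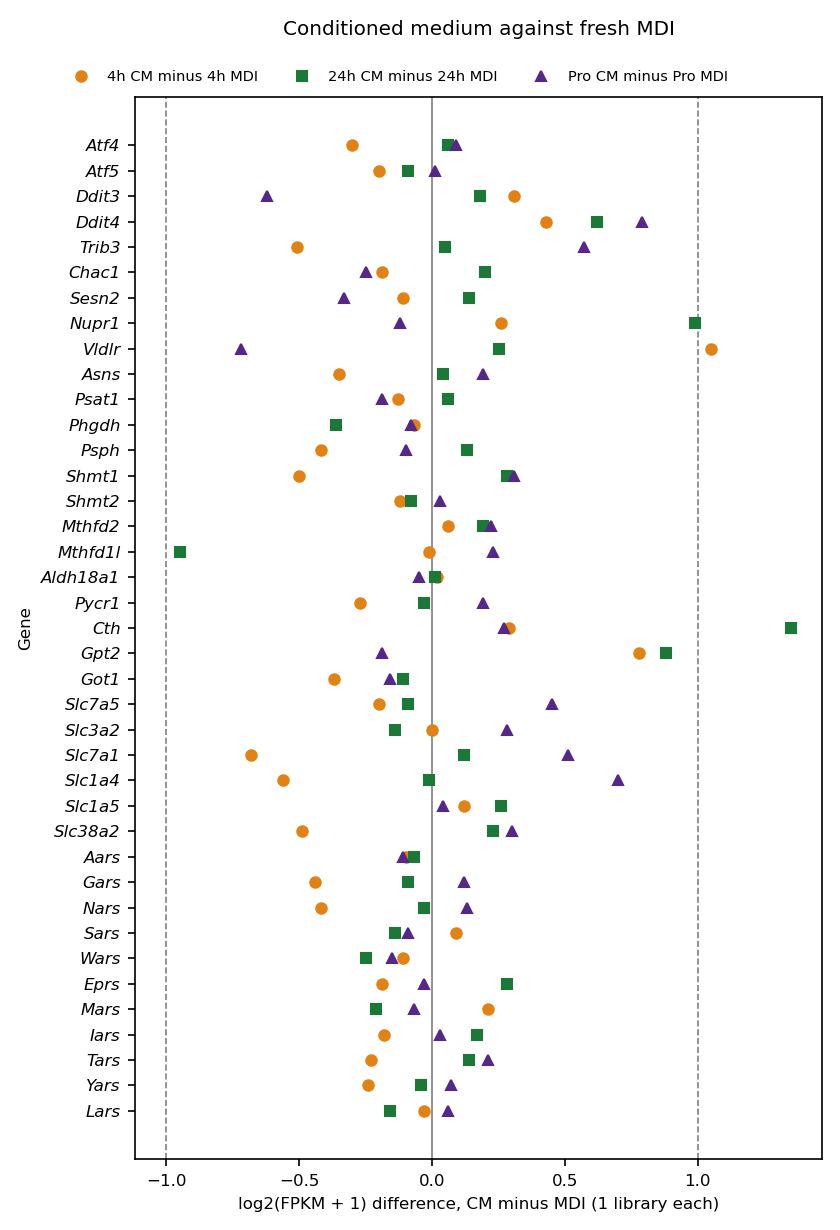
Difference between the CM and the MDI library at each stage for the 39 tested genes (horizontal axis, log2(FPKM + 1), CM minus MDI, 1 library each; dashed lines mark a difference of 1 in either direction). Vldlr at 4 h (1.05) and Cth at 24 h (1.35) lie beyond a dashed line, and Ddit4 lies right of 0 at all 3 stages.

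In the authors' deposited tables, which compare libraries in pairs with Cuffdiff, no member had a q-value under 0.1. The smallest q-values of members in the authors' deposited tables were 0.355 for 4h MDI against 0h and 0.372 for 24h CM against 0h. An unadjusted p under 0.05 in the authors' deposited tables was held by 7 members for 4h MDI against 0h, 6 for 4h CM, 1 for 24h MDI (Ddit4), 3 for 24h CM (Ddit4, Phgdh and Cth) and 0 for the 3 tables of CM against MDI.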

How the data were processed

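RNA-seq libraries of 3T3-L1 cells were analysed from tables the authors deposited for 7 pairs of libraries. The submitters' processing notes name the aligner TopHat2 (2.0.13) and Cuffdiff (2.2.0). Genome build, settings and strandedness: not given in the sources used here. FPKM per gene, with the p-value and q-value the authors obtained for each pair, are the deposited units, per the file headers. The FPKM of a library agreed between tables (largest difference 1.1e-16), so the 7 libraries were joined. A line of each table was empty (1 per table).

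Time contrasts were fitted with limma 3.58.1 (R 4.3.3) and an intensity trend on log2(FPKM + 1) of the 7 libraries, with terms for stage and for medium. The medium effect was fitted on the 6 treated libraries, blocked by stage. Genes were kept at 1 FPKM or more in 2 or more libraries, and p-values were Benjamini-Hochberg adjusted over all genes at 0.05. Pairs of libraries were compared by size. The fits were also run on simulated data, with noise drawn from the spread that limma itself had fitted and no interaction of stage and medium. That simulation cannot show whether the calls hold in these unreplicated libraries. A fold on this scale understates the change of low genes.

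The members and lists were chosen with earlier results of these data known. Values in all libraries are given for 14 fixed genes, each member called in a contrast and each at least 1 apart in a pair of CM and MDI; the others are given by range. The contrasts of Pro with 4 h and 24 h were added after the values were seen. Exon overlaps come from GENCODE M21 and promoter windows from RefSeq (GRCm38.p6). Alternatives were pseudocounts of 0.1 and 5, no filter, 2 rescalings, no trend, a threshold of 0.1 and omission of a pair of libraries. A gene of the list of other enzymes is not reported here, so no count is given for that list.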

Additional observations from a re-analysis of the deposited data

Results flagged for a closer look

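For 4 members the CM and MDI libraries differed by at least 0.5 in log2(FPKM + 1) in opposite directions at different stages, which was the case for 10.3% of the 39 tested members and 7.8% of all 11263 genes tested. With 1 library per condition the difference between stages was not tested for any of them. The difference of CM against MDI for Vldlr was 1.05 at 4 h and -0.72 in Pro, which are 1.77 apart. Slc1a4 was 0.70 higher in CM in the Pro pair and -0.56 at 4 h (1.26 apart). Slc7a1 was 0.51 higher in CM in the Pro pair and -0.68 at 4 h (1.19 apart). Trib3 was 0.57 higher in CM in the Pro pair and -0.51 at 4 h (1.08 apart).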

How the results depend on the processing

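No paired analysis was possible because the labels give no replicate numbers and each condition had 1 library, apart from the pairing of CM with MDI within a stage that the medium fit holds as its block. Of the counts followed over all alternatives, 55 stayed within 1.5 times their main value and 18 did not. The 55 include counts of 0 that stayed at 0, as in the medium fit. Of 62 gene results, 0 reversed: 430 of their values under an alternative kept the call, 70 lost it and 1 moved. The 430 include 60 at a threshold of 0.1, where a call made at 0.05 must hold. The losses were uneven: with no filter 42 were lost and 20 kept, and without the 24h pair 15 were lost and 8 kept. The count of members called at 4 h against 0h, 8 as reported, was 21 at a threshold of 0.1, 5 with no filter, 14 under TPM and 0 without the 24h pair. At 24 h against 0h, 3 members became 13 at a threshold of 0.1, 10 under TPM, and 5 with a pseudocount of 5, with no filter, without the trend or without the Pro pair. With no filter, the counts were 2 in place of 14 at 24 h against 4 h, 8 in place of 15 for Pro against 4 h and 0 in place of 20 for Pro against 24 h. In that last case limma called 0 of all 17437 genes, and gave 32 members and 4688 genes an unadjusted p under 0.05. The unfiltered fit held 17437 genes and its prior degrees of freedom were 1.44 instead of 2.76. Without the 24h pair, Pro against 4 h gave 9. Of the members 1 apart between CM and MDI, a pseudocount of 5 gave 0 at 4 h, a pseudocount of 0.1 gave 3 at 24 h and 1 (Vldlr) in Pro, and TPM gave 3 at 24 h. With a pseudocount of 5, 42 of all 10800 genes were higher in CM at 4 h and 199 lower. A pseudocount of 0.1 gave 314 of 10972 higher and 245 lower at 24 h, and 315 of 10770 higher and 216 lower in Pro. TPM gave 320 of 11360 higher and 155 lower at 24 h. Where it is not stated, the cause was not tested. FPKM without counts give no depth, so no counting error can be set beside the low values of Cbs, Slc7a3 and Slc7a11.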
